A study of Mus musculus with 6 samples.

Results

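Haemoglobin genes and other genes of the late red cell, 8 in all of 24063 gene symbols counted, were followed through bone marrow LSK cells of mice in which the chromatin remodeller subunit gene Arid2 was targeted. LSK cells lack lineage markers, carry Kit and Sca1 on their surface, and hold the haematopoietic stem cells and early progenitors. The 8 genes are Hbb-bs, Hbb-bt, Hba-a1, Slc4a1, Bpgm, Tspo2, Sptb and Tfrc, taken by symbol from the table of read counts. They were chosen by their CPM in these same 6 libraries, partly for how the globins differed between the groups. Their levels and fold changes are therefore a description. How many of them the fit across all genes called is given as a count, from which nothing is read.

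RNA was sequenced from 3 libraries labelled knockout, of the genotype Arid2fl/fl:MxCre+, and from 3 control libraries, of the genotype MxCre+. All of the mice were on the C57/BL6 background, carried the Cre transgene and received pIpC, a double-stranded RNA analogue, at an age of 6 to 8 weeks, and LSK cells were sorted 6 weeks later. The Mx promoter that drives the Cre answers to interferon in many tissues, so recombination need not be limited to blood cells. Controls received the same pIpC treatment. Nothing in the labels ties a library to an animal or a litter, so the p-values weigh differences against a library-to-library spread that may be partly technical.

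Adult haemoglobin is built from alpha chains, encoded by the Hba genes, and beta chains, encoded by the Hbb genes, each holding a haem. C57BL/6 mice carry the beta genes Hbb-bs and Hbb-bt. Globin RNA piles up in erythroblasts and reticulocytes, after the progenitor has lost stem cell markers, while iron uptake by the transferrin receptor begins earlier and serves any dividing cell. GATA1, KLF1 and the CCAAT-binding factors are the classical activators of adult globin promoters.

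Total counts ran from 12408966 to 24989866 reads in the libraries labelled knockout and from 13950708 to 28185678 reads in controls. Levels are given as CPM, read counts divided by library size after TMM scaling. Arid2 itself had 150.2 to 162.5 CPM in the libraries labelled knockout and 148.4 to 165.0 CPM in controls. A count per gene cannot show the loss of single exons, so the groups are called by their labels. By Xist, the RNA of the inactive X chromosome, all 3 libraries labelled knockout and control replicate 2 came from females, and control replicates 1 and 3 from males. Control replicate 2 was thus the sole female control. Kit was at 426.3 to 446 CPM in the libraries labelled knockout and 493.3 to 655.2 CPM in controls.

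The coding sequences of the globin copies show what the counts can and cannot separate. In GENCODE M21 (GRCm38, mm10), Hbb-bs (ENSMUSG00000052305) lies at chr7:103826534-103828096 and Hbb-bt (ENSMUSG00000073940) at chr7:103812524-103813996, both on the minus strand. Their coding sequences are 444 bases long and differ at 1 base, C417T from Hbb-bs to Hbb-bt, counted from 1 at the start codon, with an identical run of 416 bases before it. The last 60 coding bases are shown because they hold that base, in capitals:
Hbb-bs: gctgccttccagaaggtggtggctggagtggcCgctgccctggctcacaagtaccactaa
Hbb-bt: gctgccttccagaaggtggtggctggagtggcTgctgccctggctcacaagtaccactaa
Reads from inside the coding sequence can be assigned to one copy only across that base. The treatment of shared reads is not stated, so the split between Hbb-bs and Hbb-bt is uncertain. Hba-a1 (ENSMUSG00000069919, chr11:32283511-32284465) and Hba-a2 (ENSMUSG00000069917, chr11:32296489-32297298), both on the plus strand, also differ at 1 of 429 coding bases. The 2 symbols had the same count in every library, as did Hbb-b1 and Hbb-bs, and Hbb-b2 and Hbb-bt. Hba-a1 therefore stands for both alpha copies, and the repeated symbols were left out. Since the treatment of shared reads is not stated, the level of alpha against beta globin is uncertain too.

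Promoters of the globins, which were higher in the libraries labelled knockout, are printed beside that of Tspo2, which was not. Each is the 250 bases before the RefSeq start of the gene on GRCm38.p6, read 5′ to 3′ on the gene's own strand, and capitals mark matches on either strand to CACCC (the letters read by KLF1), to CCAAT (by NF-Y), to GATAA (by GATA factors) and to TATAA (the TATA box). No match overlaps another:
Hbb-bs, chr7:103827929-103828178, minus strand: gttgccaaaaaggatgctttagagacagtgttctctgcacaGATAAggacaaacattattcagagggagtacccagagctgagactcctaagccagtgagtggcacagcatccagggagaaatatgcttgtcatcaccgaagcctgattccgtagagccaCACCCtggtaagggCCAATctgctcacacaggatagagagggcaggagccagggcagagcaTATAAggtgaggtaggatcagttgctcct
Hbb-bt, chr7:103813924-103814173, minus strand: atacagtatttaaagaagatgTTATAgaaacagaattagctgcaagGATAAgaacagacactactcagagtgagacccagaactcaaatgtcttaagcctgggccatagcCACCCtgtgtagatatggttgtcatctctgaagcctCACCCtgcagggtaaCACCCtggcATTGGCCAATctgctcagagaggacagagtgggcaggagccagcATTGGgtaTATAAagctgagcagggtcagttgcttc
Hba-a1, chr11:32283422-32283671, plus strand: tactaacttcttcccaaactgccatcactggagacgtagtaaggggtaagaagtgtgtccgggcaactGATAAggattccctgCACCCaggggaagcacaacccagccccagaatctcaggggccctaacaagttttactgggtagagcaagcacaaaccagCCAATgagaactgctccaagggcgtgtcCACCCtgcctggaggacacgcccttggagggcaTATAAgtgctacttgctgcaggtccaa
Tspo2, chr17:48451502-48451751, minus strand: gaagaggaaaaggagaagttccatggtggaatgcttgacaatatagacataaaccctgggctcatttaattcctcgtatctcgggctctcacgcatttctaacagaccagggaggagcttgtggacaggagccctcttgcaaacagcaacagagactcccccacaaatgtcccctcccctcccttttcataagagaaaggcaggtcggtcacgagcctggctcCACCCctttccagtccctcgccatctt
All 3 globin windows held each of the 4 motifs, which 0.968% of 32851 RefSeq promoter windows of this length do. Singly, CACCC was in 52% of those windows, CCAAT in 33.8%, GATAA in 22.6% and TATAA in 22.8%. In Hbb-bs the TATAA match began 29 bases, the CCAAT match 76 bases and the CACCC match 90 bases before the start. In Hbb-bt 1 CCAAT and 1 TATAA match lay within 1 base of those places, at 75 and 28 bases. Its other CCAAT matches were at 80 and 36 bases and its other TATAA match at 229 bases, all on the opposite strand. In Hba-a1 the CCAAT match was at 88 bases and the TATAA match at 27 bases. Tspo2 held a CACCC match alone, 27 bases before its start, and so did Sptb, at 95 bases. The Bpgm window held CCAAT matches alone, and neither of the Tfrc windows held GATAA. A match is a run of letters and not a measured binding site. Promoters were found for 7 of the 8 genes, all but Slc4a1.

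The globins were many times higher in the libraries labelled knockout. Hbb-bs, a beta globin gene, had 36.4, 56.2 and 109.8 CPM in replicates 1 to 3 labelled knockout and 4.98, 4.16 and 5.58 CPM in control replicates 1 to 3. The lowest library labelled knockout stood 6.52 times above the highest control. The means were 67.5 ± 37.98 CPM in the libraries labelled knockout and 4.91 ± 0.714 CPM in controls (SD, n = 3 each), and the fitted log2 fold change was 3.79 with an SE of 0.40. In bulk RNA more cells that carry a transcript and more of it per cell cannot be told apart.

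Hba-a1, the alpha chain, had 9.51, 14.96 and 27.0 CPM in the libraries labelled knockout and 1.598, 1.39 and 2.96 CPM in controls (log2 fold change 3.15, SE 0.44). Hbb-bt, the other adult beta gene, had 4.54, 6.53 and 10.4 CPM in the libraries labelled knockout and 0.615, 0.959 and 1.79 CPM in controls (log2 fold change 2.69, SE 0.43). Neither gene overlapped between the groups. The control values of Hbb-bt rest on 10, 27 and 26 reads, and those of Hba-a1 on 26, 39 and 43 reads. Per kilobase of exon, Hbb-bs averaged 87.8 ± 49.5 CPM per kb in the libraries labelled knockout and 6.39 ± 0.929 CPM per kb in controls, well above Hba-a1 at 21.2 ± 11.1 and 2.44 ± 1.05 CPM per kb. Embryonic and theta globins were nearly silent in both groups. Over all 6 libraries Hba-x, Hbb-y and Hbb-bh1 had 1 read each, Hbb-bh2 none, Hbq1a 2 and Hbq1b 6.

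Slc4a1 encodes the chloride and bicarbonate exchanger that is the most abundant protein of the red cell membrane. It had 6.82, 10.1 and 20.9 CPM in the libraries labelled knockout and 1.48, 1.17 and 4.48 CPM in controls (log2 fold change 2.45, SE 0.56). The groups did not overlap, although control replicate 3 came within 1.52 times of the lowest library labelled knockout. The log2 fold change ran from 1.89 without labelled-knockout replicate 3 to 3.24 without control replicate 3.

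Sptb encodes the beta chain of spectrin, the mesh under the red cell membrane, and its groups overlapped. It had 16.5, 23.4 and 38.4 CPM in the libraries labelled knockout and 11.5, 9.84 and 23.6 CPM in controls (log2 fold change 0.81, SE 0.38). Control replicate 3 was level with labelled-knockout replicate 2 and above replicate 1 of that group. The log2 fold change ran from 0.43 without labelled-knockout replicate 3 to 1.28 without control replicate 3. Sptb shares its locus with Plekhg3 and Gm24010 on the opposite strand, and whether reads were counted by strand is not stated.

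Bpgm encodes the enzyme that makes bisphosphoglycerate, which lowers the oxygen affinity of haemoglobin. Its levels were 37.7, 36.8 and 40.7 CPM in the libraries labelled knockout and 31.0, 26.3 and 31.0 CPM in controls (log2 fold change 0.38, SE 0.09). These groups did not overlap, but the difference was 1.31-fold, far smaller than that of any globin, and the gene was well expressed in every library.

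Tspo2 encodes an erythroid translocator protein that binds cholesterol. Between the groups it did not follow the globins, though it rose with them through the libraries labelled knockout. It had 2.38, 4.56 and 12.1 CPM in the libraries labelled knockout and 2.15, 5.08 and 12.95 CPM in controls (log2 fold change −0.11, SE 0.69). Libraries of the same replicate number stood close together, while the highest library exceeded the lowest 5.10 times within the libraries labelled knockout and 6.02 times within controls. The direction of the mean difference is not defined, since the log2 fold change ran from −0.92 without labelled-knockout replicate 3 to 0.73 without control replicate 3.

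Tfrc, the transferrin receptor through which dividing cells and erythroblasts take up iron, was nearly level. It had 141.5, 138.4 and 195.9 CPM in the libraries labelled knockout and 135.9, 147.5 and 137.8 CPM in controls (log2 fold change 0.17, SE 0.13). Knockout replicate 3 was the one library that stood apart, and without it the log2 fold change was −0.0050.

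**Figure D1:**
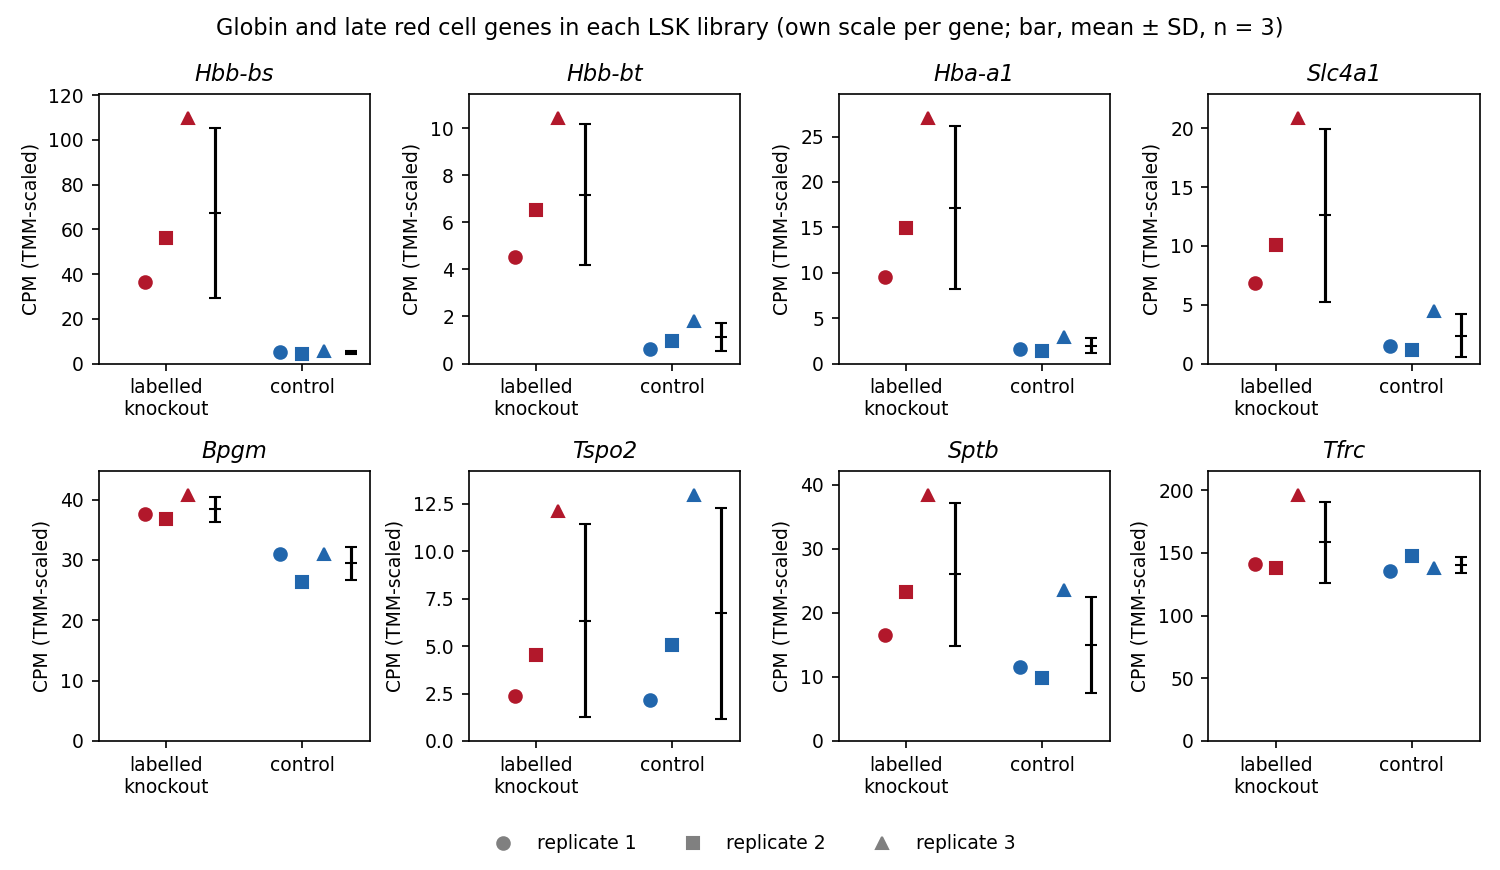
CPM of each of the 8 genes (vertical axes, own linear scale from 0) in the 3 libraries labelled knockout and the 3 control libraries, with marker shape for the replicate number and bars for mean ± SD. Hbb-bs, Hbb-bt, Hba-a1, Slc4a1 and Bpgm do not overlap between the groups, whereas Tspo2 takes like values in libraries of the same number.

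Of the 8 genes, 5 were past the threshold of the test across all genes (edgeR quasi-likelihood, Benjamini-Hochberg adjusted p under 0.05), all higher, and 3 were not. Among all 13679 symbols tested, 3.85% were called higher. The same 5 genes had no overlap between the groups with the libraries labelled knockout higher, as 15.1% of all symbols had. Since the genes were picked with this contrast in view, nothing is read from either count. With each library left out in turn, 3 or 4 of the 8 stayed past the threshold. The globins did so in every one of these fits, Slc4a1 only without labelled-knockout replicate 1 or control replicate 3, and Bpgm in none. With sex as a term in edgeR, 0 of the 8 passed, against 0.0512% of all symbols called higher and 0.263% called lower. In that fit 6 of the 8 had an unadjusted p under 0.05, as did 1633 of the 13679 symbols in either direction. The sole female control was the library with the lowest Hbb-bs, Hba-a1, Slc4a1, Bpgm and Sptb of all. Hbb-bt, Tspo2 and Tfrc were lowest in control replicate 1, from a male. The log2 fold changes with that term were 4.01 for Hbb-bs, 3.61 for Hba-a1, 3.40 for Slc4a1 and 1.39 for Sptb, with SEs of 0.67, 0.70, 0.87 and 0.54. For Hbb-bt, Bpgm, Tspo2 and Tfrc they were 2.88, 0.54, 0.28 and 0.10, with SEs of 0.70, 0.12, 1.02 and 0.19.

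Within each library the globins and Slc4a1 kept close proportions in the group labelled knockout. The number of Hba-a1 reads per read of Hbb-bs plus Hbb-bt was 0.233, 0.238 and 0.225 in the libraries labelled knockout, while the level of Hbb-bs differed 3.02 times among them. In controls the ratio was 0.286, 0.271 and 0.402. The difference in the mean log2 ratio was −0.44, and −0.26 without control replicate 3, the library with the highest ratio. Hbb-bt reads per Hbb-bs read were 0.125, 0.116 and 0.0950 in the libraries labelled knockout and 0.123, 0.231 and 0.321 in controls. The difference in mean log2 ratio was −0.91, and −0.60 without control replicate 3.

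The proportion of Slc4a1 to Hbb-bs was as even, at 0.188, 0.179 and 0.190 reads per read in the libraries labelled knockout, and at 0.296, 0.282 and 0.802 in controls. Its SD on the log2 scale was 0.04 among libraries labelled knockout and 0.85 among controls, and the difference in mean log2 ratio was −1.13, or −0.64 without control replicate 3. For Sptb the ratio to Hbb-bs was 0.454, 0.415 and 0.349 in the libraries labelled knockout, against 2.31, 2.37 and 4.23 in controls. Bpgm had 1.04, 0.655 and 0.371 reads per Hbb-bs read in the libraries labelled knockout and 6.22, 6.33 and 5.56 in controls. The ratio of Tspo2 was 0.0654, 0.0811 and 0.110 in the libraries labelled knockout, against 0.432, 1.22 and 2.32 in controls. Control replicates 2 and 3 thus had more Tspo2 than Hbb-bs reads, and no library labelled knockout did. These ratios are not scaled for exon length, which is 3225 bases for Tspo2 and 768 for Hbb-bs. In CPM per kb, Hbb-bs exceeded Tspo2 in both of those controls, at 5.413 against 1.576 in replicate 2 and 7.265 against 4.015 in replicate 3.

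**Figure D2:**
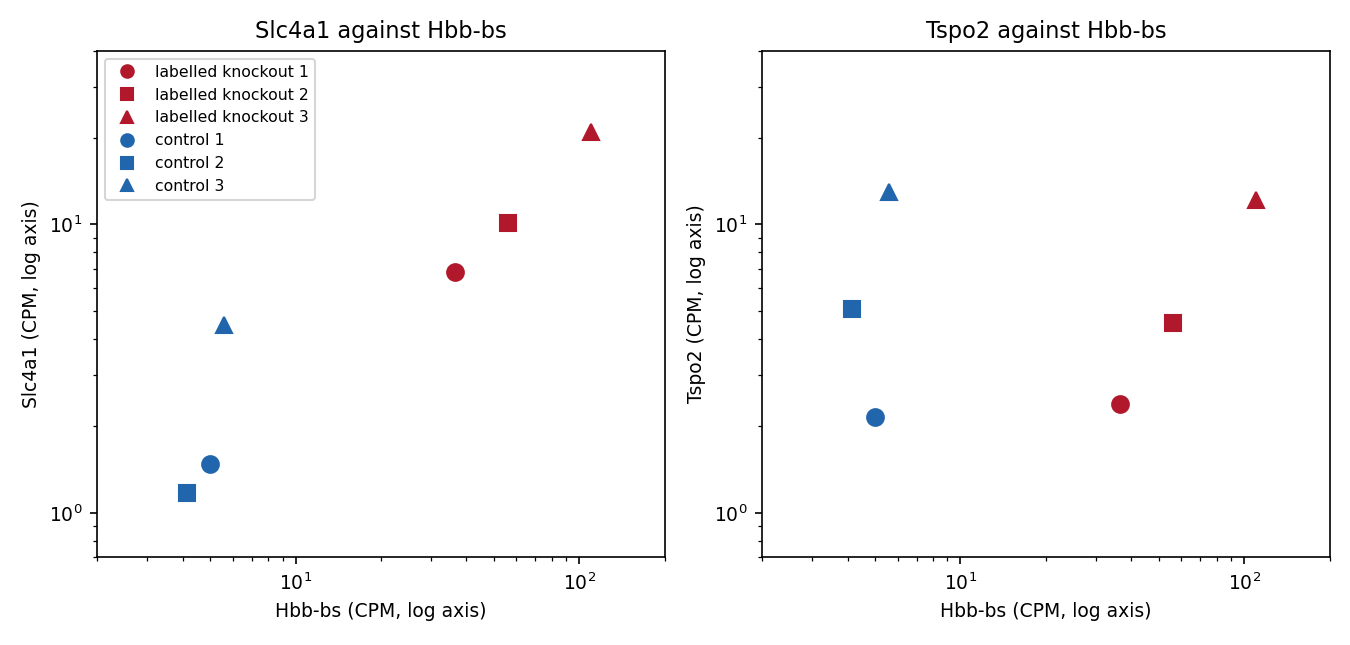
Slc4a1 (left) and Tspo2 (right) against Hbb-bs, in CPM on log axes, with 1 point for each of the 6 libraries. Both genes climb with Hbb-bs through the libraries labelled knockout. Between the groups Tspo2 does not, with 12.1 CPM in labelled-knockout replicate 3 and 12.95 CPM in control replicate 3. These 2 libraries hold 109.8 and 5.58 CPM of Hbb-bs.

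Replicate 3 was the highest library of its group in both groups for 7 of the 8 genes, all but Tfrc, as it was for 18.7% of all symbols tested. The same held for 53 of the 77 other red cell genes tested. Replicates of 1 number are not tied to each other by the labels. The erythroblast marker list, which contains none of the 8 genes, summed to 245.5, 365.2 and 749 CPM in the libraries labelled knockout and to 157.9, 190.5 and 572.6 CPM in controls. Control replicate 3 thus exceeded labelled-knockout replicates 1 and 2 in this sum. Its Hbb-bs, at 5.58 CPM, was 6.52 times below the lowest of the group labelled knockout. Car1 alone made up most of the sum in each library, with 361.3 CPM in control replicate 3.

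Of the 9 erythroblast markers tested, Alas2 was called higher and the other 8 did not pass the test (edgeR). All 9 had positive log2 fold changes, with a median of 0.43. Without control replicate 3 Alas2 was again the one called, and 7 of the 9 were higher at an unadjusted p under 0.05, against 1 with all libraries. With any other library left out, Alas2 was also the one called, and 1 or 2 of the 9 were higher at that p. Over all 13679 symbols, 3405 had such a p in either direction with all libraries (edgeR, group alone). For fits with a library left out that count is not given. Ermap, a membrane protein of erythroid cells, had 41.6, 60.01 and 134.7 CPM in the libraries labelled knockout and 32.2, 42.8 and 105.8 CPM in controls. Car1, the red cell carbonic anhydrase, had 148.6, 228.8 and 463.7 CPM in the libraries labelled knockout and 86.4, 106.1 and 361.3 CPM in controls. Both of these overlapped between the groups and were highest in replicate 3 of each.

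**Figure D3:**
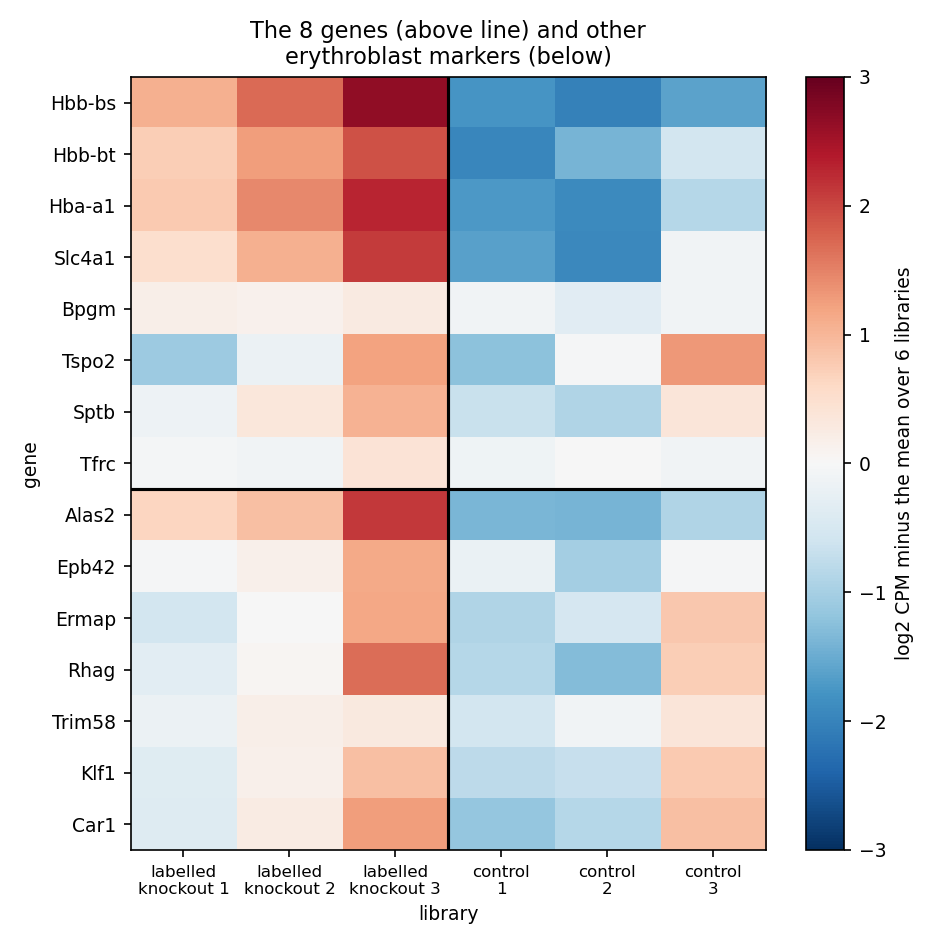
Log2 CPM of the 8 genes (above the line) and of 7 other erythroblast markers (below it) in each library, as the difference from the gene's mean over the 6 libraries (colour). The globins, Slc4a1 and Alas2 separate the groups, whereas Tspo2, Ermap and Car1 are high in replicate 3 of both.

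Other genes of the red cell were read from lists by role. Of 77 that could be tested outside the 8, edgeR called 5 higher and 2 lower and left 70 uncalled, with a median log2 fold change of 0.15 against −0.0016 over all symbols tested. The called shares over all symbols were 3.85% higher and 4.58% lower. With the sex term edgeR called 0 of the 77, while 6 higher and 2 lower had an unadjusted p under 0.05. Among all 13679 symbols, 1633 had such a p in that fit, in either direction.

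Among 18 membrane and skeleton genes, 0 passed the test (edgeR), 1 in each direction had an unadjusted p under 0.05, and DESeq2 called those same numbers, Mpp1 higher and Icam4 lower. Without control replicate 3, edgeR called Cldn13, a claudin gene, higher, and 9 of the 18 were higher at an unadjusted p under 0.05. With any other library left out, 0 were called and 1 or 2 were higher at that p. With all libraries, 3405 of the 13679 symbols had such a p in either direction (edgeR, group alone). That count is not given for fits with a library left out, so these numbers have no background beside them. The log2 fold changes of the list had a median of 0.37. Icam4, an adhesion molecule by which erythroblasts bind macrophages, had a log2 fold change of −0.67 (edgeR adjusted p = 0.0518), and the scaffold gene Mpp1 one of 0.42 (adjusted p = 0.0560). Epb42, which ties the Slc4a1 protein to the skeleton, had 2.06, 2.38 and 4.82 CPM in the libraries labelled knockout and 1.84, 0.995 and 2.07 CPM in controls (adjusted p = 0.216 in edgeR). Xk, a membrane transporter gene, had a log2 fold change of 0.23 (adjusted p = 0.235 in edgeR).

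Of 14 haem synthesis and transport genes, Alas2 was higher and 13 did not pass, with a median log2 fold change of 0.24. Alas2, the erythroid form of the enzyme that makes the first haem precursor, had 5.87, 7.02 and 16.3 CPM in the libraries labelled knockout and 1.35, 1.35 and 1.93 CPM in controls (adjusted p = 0.0102 in edgeR, with a log2 fold change of 2.65 and an SE of 0.42). That held with any of the 6 libraries left out. With the sex term its log2 fold change was 2.82 (edgeR adjusted p = 0.166). Abcb10, a mitochondrial transporter of erythroid cells, Tspo, the broadly expressed relative of Tspo2, and Tmem14c, a haem precursor carrier, had log2 fold changes of 0.38, 0.38 and 0.24 and did not pass in edgeR, while DESeq2 called Abcb10 higher.

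Iron genes outside Tfrc numbered 11, with 2 higher and 9 others not called, with a median log2 fold change of 0.17. Slc40a1, the iron exporter ferroportin, had 92.3, 64.0 and 118.3 CPM in the libraries labelled knockout and 53.4, 51.0 and 53.0 CPM in controls (log2 fold change 0.80, edgeR adjusted p = 0.0375). Hfe, a regulator of iron sensing, had a log2 fold change of 0.55 (edgeR adjusted p = 0.0422). Slc40a1 kept its call only without labelled-knockout replicate 2 and Hfe only without control replicate 2. With each library left out, Slc40a1 had log2 fold changes of 0.57 to 1.01 and Hfe of 0.45 to 0.69. The ferritin chains Ftl1 and Fth1 had 0.20 and 0.25 and did not pass.

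Of 19 metabolism and maturation genes, Trim10 was higher and 18 did not pass, with a median log2 fold change of 0.15. Trim10, a ring finger protein of terminal erythroid maturation, had 2.96, 2.98 and 9.39 CPM in the libraries labelled knockout and 0.738, 0.604 and 1.51 CPM in controls (log2 fold change 2.44, SE 0.57, edgeR adjusted p = 0.0374). Its call was lost without labelled-knockout replicate 2 or 3 and without control replicate 1 or 2. With each library left out, its log2 fold change ran from 1.69 to 2.90. Tent5c, listed under its older symbol Fam46c, the peroxidase gene Gpx1 and the haem breakdown gene Blvrb had log2 fold changes of 0.71, 0.25 and 0.64 and did not pass in edgeR, while DESeq2 called Fam46c higher.

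The transcription factor list leaned the other way, with a median log2 fold change of −0.20 over 15 genes, of which 1 was called higher and 2 lower. E2f2, which governs the cell cycle exit of erythroblasts, was higher at 108.7, 84.2 and 86.7 CPM in the libraries labelled knockout and 54.3, 54.4 and 48.8 CPM in controls (log2 fold change 0.83, edgeR adjusted p = 0.00492), a call that held with any library left out. Myb, a progenitor factor that falls during erythroid maturation, and Tfdp2, a partner of E2F factors, were lower (log2 fold changes −0.31 and −0.34, edgeR adjusted p = 0.0320 and 0.0420). Myb kept its call only without control replicate 3 and Tfdp2 only without control replicate 2, with log2 fold changes across these fits of −0.36 to −0.28 and −0.40 to −0.26. Nfe2 had −0.25 and did not pass (edgeR adjusted p = 0.0827).

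**Figure D4:**
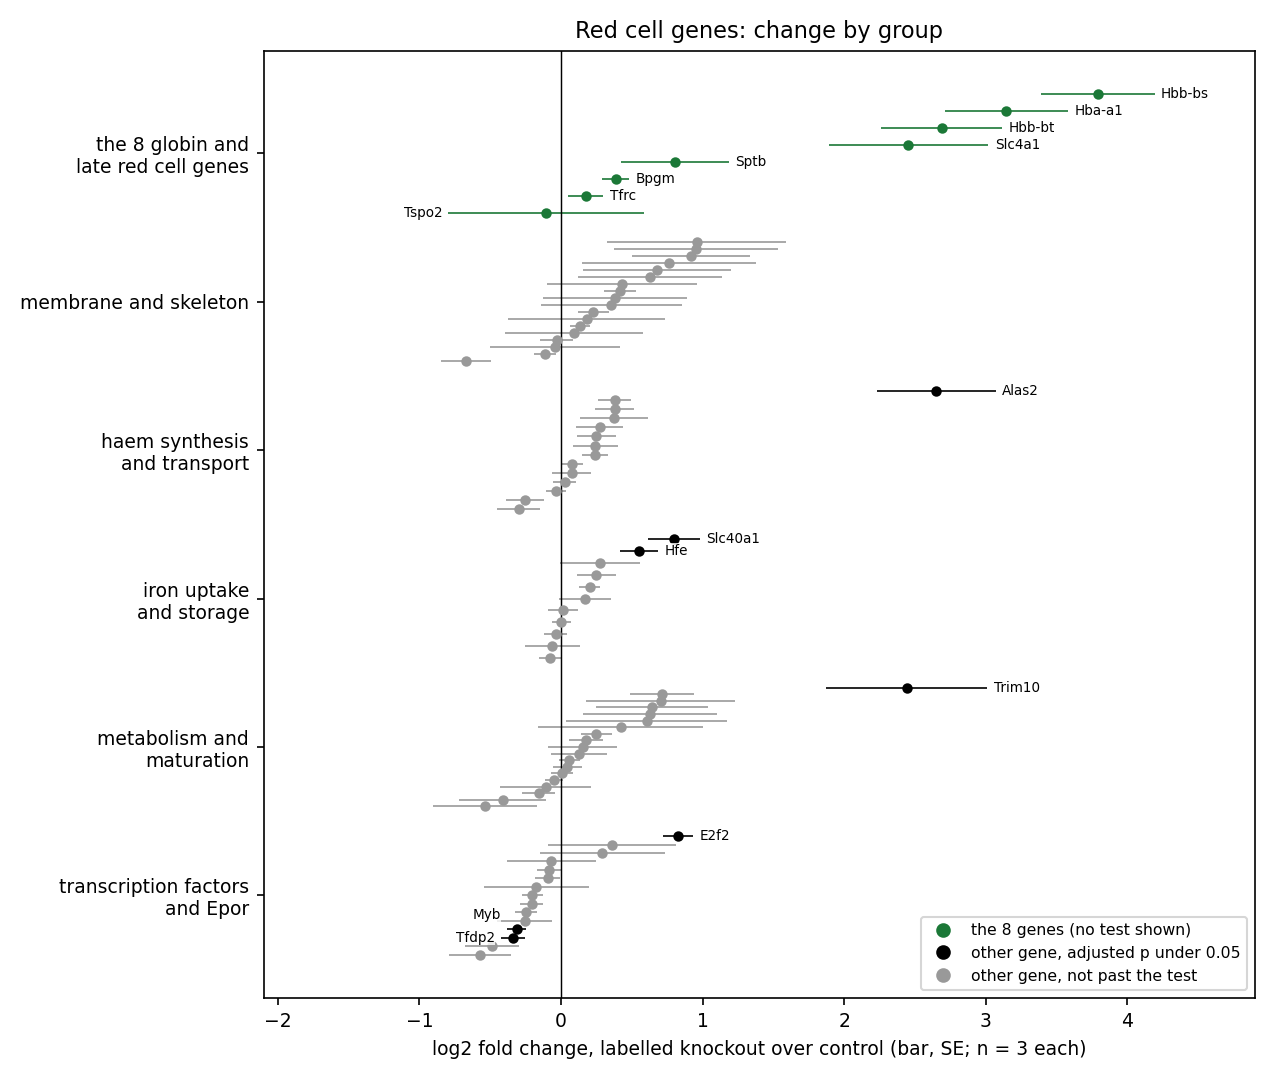
Log2 fold change of the libraries labelled knockout over controls (horizontal axis; bars, SE) for the 8 genes, green, and for 77 other red cell genes by list, black where the edgeR adjusted p was under 0.05 and grey otherwise. Alas2 at 2.65 and Trim10 at 2.44 lie among the globins and Slc4a1, and the other listed genes lie within 1 log2 unit of 0, from −0.67 for Icam4 to 0.96 for Rhag.

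Markers of other cells moved between the groups as well, and their part in the globin levels was not tested. The 16 markers of macrophages of the erythroblastic island, the macrophage around which red cells mature, summed to 588.6 to 1463 CPM in the libraries labelled knockout and to 341.3 to 574.7 CPM in controls. Slc40a1 is also among the iron genes above. Of these markers, 15 had positive log2 fold changes and 3 passed the test, Marco, Hmox1 and Slc40a1 (edgeR). Neutrophil markers summed to 7190 to 9211 CPM in the libraries labelled knockout and 2979 to 5755 CPM in controls, with 5 of 12 called higher. Monocyte markers reached 2469 to 2582 CPM in the libraries labelled knockout and 1309 to 1741 CPM in controls, with 5 of 7 higher. Megakaryocyte and platelet markers, of a lineage that shares its progenitor with red cells, summed to 208.9 to 316.4 CPM in the libraries labelled knockout, against 358.2 to 492.5 CPM in controls, with 5 of 9 called lower. Sums for mast cells and basophils were 141.6 to 276.9 CPM in the libraries labelled knockout and 196.9 to 550.4 CPM in controls, with 2 of 6 lower. For LSK and stem cell genes the sums were 1271 to 1426 CPM in the libraries labelled knockout and 1617 to 1979 CPM in controls, with 3 of 8 lower. B cell markers summed to 24.8 to 28.5 CPM in the libraries labelled knockout and 34.7 to 39.0 CPM in controls, with 1 of 7 tested, Cd79b, called lower, although their median log2 fold change was 0.59. T and NK cell markers summed to 248 to 317.5 CPM in the libraries labelled knockout and 197.4 to 274.2 CPM in controls. For T and NK cells edgeR called 0 of 8, with 2 lower at an unadjusted p under 0.05, and DESeq2 called 1 lower. No listed marker was at 0 in every library, and Pax5 was at 0 in 1 control. With the sex term, Cd79b was the only one of these markers called.

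Most of these marker counts depended on single libraries in edgeR. The 3 island macrophage calls became 6 without labelled-knockout replicate 1, 5 without control replicate 3, and 1 without control replicate 1 or 2. The 5 monocyte calls became 2 without labelled-knockout replicate 2 or 3 or control replicate 1 or 3, and the 5 neutrophil calls became 8 without control replicate 3. The 5 megakaryocyte calls became 0 without labelled-knockout replicate 1 or 2, and 3 without labelled-knockout replicate 3 or control replicate 2. The 2 mast cell calls became 0 without labelled-knockout replicate 2 or 3, 1 without control replicate 1 or 2, and 4 without control replicate 3. The 3 LSK and stem cell calls became 1 without labelled-knockout replicate 1 or 2, and 0 without control replicate 1.

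**Figure D5:**
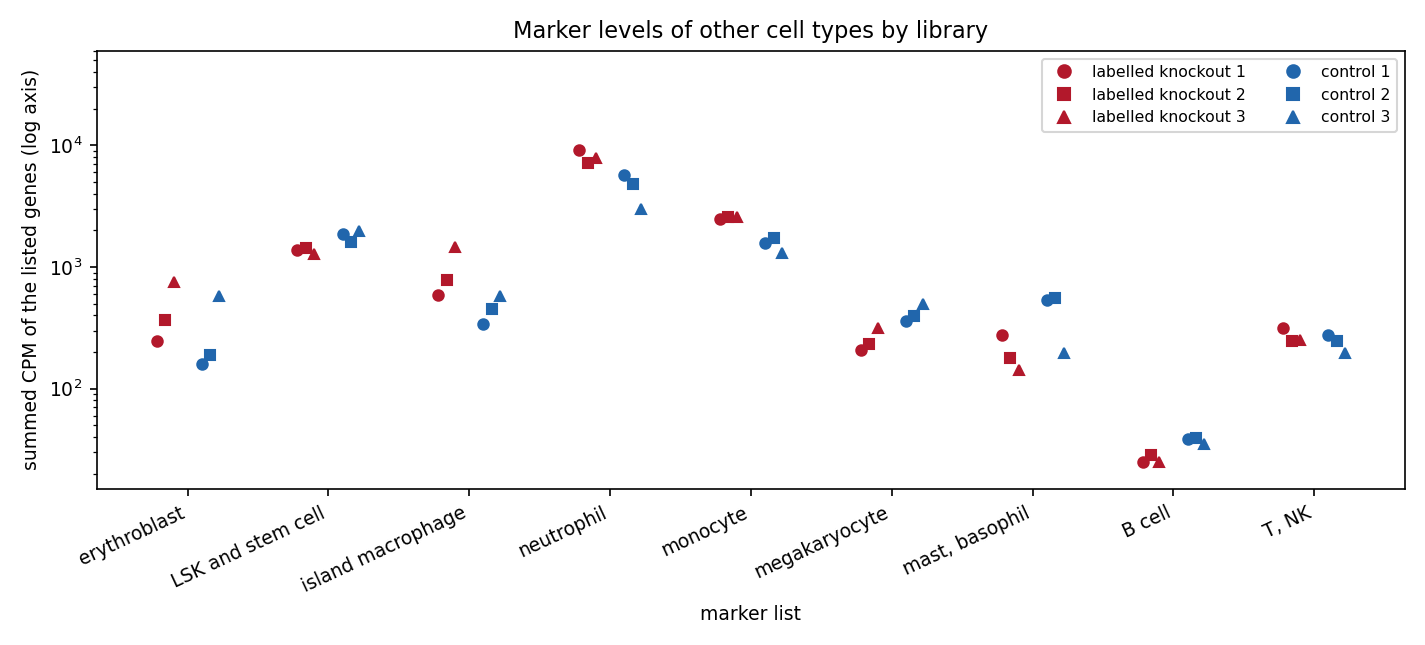
Summed CPM of each marker list (log axis) in the 3 libraries labelled knockout, red, and the 3 control libraries, blue, with marker shape for the replicate number. Erythroblast markers overlap between the groups, at 245.5 to 749 against 157.9 to 572.6 CPM, whereas island macrophage and monocyte sums do not.

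Genes most like the 8 across libraries were found by the correlation of their log2 CPM with the mean centred profile of the 8, over 6 libraries and among 2524 symbols that ranged over at least 1 log2 unit. Libraries of 1 group share what sets the groups apart, so the correlations are descriptions. The 10 highest were Fam214b and Gp49a (Pearson r = 0.989 each), Hmox1 (0.987), Trim10 (0.984), Ampd3 (0.983), Pcbp3 (0.983), Mpp2 (0.983), Plvap (0.983), Hcn2 (0.981) and Tnip3 (0.981). Hmox1, which breaks down haem, averaged 90.1 ± 45.0 CPM in the libraries labelled knockout and 23.7 ± 8.14 CPM in controls (SD, n = 3 each). Ampd3, the AMP deaminase of red cells, averaged 38.6 ± 4.51 CPM in the libraries labelled knockout and 24.4 ± 3.85 CPM in controls. When each library was set against the mean of its own group, other genes came closest, and only Mpp2 was among the 10 highest both times. Among the 10 highest were Sepp1 (r = 0.999), the erythropoietin receptor gene Epor (0.997), Blvrb (0.996), the red cell water channel gene Aqp1 (0.995), Lhcgr (0.995), Sdsl (0.994), Prune2 (0.994), Mpp2 (0.993) and Sec14l2 (0.992). Aqp1 averaged 108.8 ± 63.4 CPM in the libraries labelled knockout and 111.8 ± 64.8 CPM in controls, so its groups lay within each other's spread, as did those of Epor, at 22.5 ± 12.7 and 18.3 ± 10.03 CPM.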

How the data were processed

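Total RNA of sorted LSK cells went through poly(A) selection and a directional library kit, per the labels' protocols. The authors deposited raw read counts per gene symbol, whole numbers with no normalization. The submitters' processing notes name STAR and mm10. How reads were assigned to genes, and whether by strand, is not stated. Of 24063 symbols, 4092 had no read. After filterByExpr, set to a minimum count of 10 and a minimum total of 15, there remained 13679 symbols and all 8 genes. Libraries were scaled by TMM and tested with edgeR 4.0.16 in R 4.3.3 (quasi-likelihood F test, group as the sole term, Benjamini-Hochberg adjustment over all symbols, threshold 0.05). The SE is the absolute log2 fold change divided by the square root of F. From the deposited counts, CPM were calculated with TMM-scaled library sizes, and CPM per kb over the union of GENCODE exons. Sequences were read from RefSeq promoters (GRCm38.p6) and GENCODE M21 transcripts and aligned with Biopython 1.88. Ratios used raw reads and are given with no test.

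Members and lists were chosen with earlier results of these data known. From each list, genes past the threshold are named, and where these were fewer than 4, those with the smallest p up to 4, as are the 10 symbols whose profile correlates best with the mean of the 8, leaving out predicted gene models (log2 CPM with a prior count of 2). The erythroblast markers printed by library were chosen after their values were seen. Symbols were matched by name, and 5 through RefSeq synonyms; Ahsp was not matched. Scripts were tested on simulated counts. Alternatives were RLE size factors, no filter, DESeq2 1.42.0, a replicate block, a sex term, globin rows left out of library totals, repeated symbols kept once, 0.5 added to each count in ratios, and each library left out. Values of a few erythroblast markers by library are not reported here.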

Additional observations from a re-analysis of the deposited data

How the results depend on the processing

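Size factors by RLE, globin rows left out of the totals and repeated symbols kept once changed none of the counts below by over 1.5 times. Neither did removing the filter, though haem genes called higher went to 2, not 1, and membrane genes to 1 in each direction, not 0. Over all symbols, 526 were higher and 626 lower by group alone; with the sex term 7 and 36 were, and DESeq2 gave 833 higher. Leaving out each library in turn gave 119 to 440 higher and 171 to 544 lower. Of the 8 genes, 5 were called higher, 0 with the sex term and 3 to 4 with a library left out. Of the 77 other red cell genes, 5 were higher and 2 lower, 0 and 0 with the sex term, 8 and 4 in DESeq2, and 2 to 4 and 0 to 1 with a library left out. Tspo2 had a log2 fold change of −0.11, 0.28 with the sex term and −0.92 to 0.73 with a library left out. Tfrc had 0.17, and −0.0050 to 0.26 with a library left out. The cause was not tested, beyond the fewer samples in these fits. No other fold change of the 8 changed sign in 104 values under alternatives. Under each alternative run, the differences in log2 ratio within a library moved from their main values by less than the SD between replicates.

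Whether replicate numbers pair the samples is not settled, and they were not treated as pairs in the main fit. Deviations from the group means correlated at 0.29, −0.0048 and 0.34 for numbers 1, 2 and 3, and 4 of 6 libraries correlated best with their own number. With the replicate number as a block, 1169 symbols were higher and 1003 lower, 6 of the 8 genes higher, and 21 and 8 of the other red cell genes higher and lower.

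Depth limits the globin ratios in controls, where Hbb-bt rests on 10 to 27 reads.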
